A study of Arabidopsis thaliana with 12 samples.

Results

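Genes of root hair growth were followed across the 12 arrays of an Arabidopsis thaliana seedling experiment, as 10 of the 32627 loci measured. The loci were taken by their identifiers: RHD6 (AT1G66470), RSL1 (AT5G37800), RSL2 (AT4G33880), RSL4 (AT1G27740), COW1 (AT4G34580), EXPA7 (AT1G12560), EXPA18 (AT1G62980), LRX1 (AT1G12040), PRP3 (AT3G62680) and RHS13 (AT4G02270). All 10 were on the array, each with 1 transcript feature of 3 or 4 probes. The rule that picks them uses identifiers and no measured value, although the genes were proposed with earlier results of these data known.

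The RNA came from whole Col-0 seedlings, 10 days old, of 3 genotypes. The first was wild type, the second carries a T-DNA insertion and is labelled gem1, and the third overexpresses GEM under the 35S promoter, which is active in most plant tissues. GEM, which has a GRAM domain, takes part in deciding which root epidermal cells form hairs. Each genotype was sampled untreated and after 2 h with 100 µM abscisic acid (ABA), a hormone of the stress response, and each of these 6 groups has 2 biological replicates. No mock treatment is named, so ABA and the handling that goes with it cannot be told apart. The seedling holds root and shoot together, so root hair cells are a small part of the tissue.

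Root hairs are tubular outgrowths of single epidermal cells that take up water and minerals. The class I basic helix-loop-helix (bHLH) factors RHD6 and RSL1 start hair formation, and the class II factors RSL2 and RSL4, which act after them, drive the growth of the hair. Growth itself is confined to the hair tip, where membrane traffic and a wall that is loosened and rebuilt let the cell extend. COW1 is a phosphatidylinositol transfer protein of the Sec14 type that this tip growth needs. EXPA7 and EXPA18 are expansins, which loosen the wall, and LRX1 is a leucine-rich repeat extensin of the hair wall. PRP3 is a proline-rich structural wall protein, and RHS13 is a root hair specific gene of the pollen Ole e 1 allergen and extensin family.

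Positions are those of the array annotation, and the sources used here do not give its genome build. RHD6 lies on chromosome 1 (24795214 to 24796988, forward), RSL1 on chromosome 5 (15036197 to 15037574, forward) and RSL2 on chromosome 4 (16239363 to 16241137, reverse). RSL4 lies on chromosome 1 (9654688 to 9656089, forward) and COW1 on chromosome 4 (16515327 to 16519534, forward). Among the wall genes, EXPA7 (4276519 to 4277899), EXPA18 (23331676 to 23333110) and LRX1 (4070124 to 4072567) are on the forward strand of chromosome 1. PRP3 is on chromosome 3 (23182722 to 23183994, forward) and RHS13 on chromosome 4 (992175 to 993038, reverse). Where on a transcript the probes lie was not used here.

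Values are log2 expression as deposited, and a difference of 1 is 2-fold. Array medians lay between 12.16 and 12.22 and values between 6.99 and 15.95. The 12 arrays limit the precision, and the files used here carry no flags for background or saturation. RSL1 and RSL2 were dim, with 6.19% and 3.14% of loci dimmer by mean signal, and none of the 10 had a mean over 15, near the top of the scale. GEM itself read 14.12 and 14.48 (untreated) and 14.38 and 14.40 (ABA) in wild type. In the overexpressor it read 15.81, 15.78, 15.73 and 15.74, higher than wild type by 1.42 (SE 0.10, limma adjusted p = 0.0253) at a level near the top of the scale. That call held in 1 of the 12 fits with 1 array left out (without untreated wild type replicate 2), where the difference stayed between 1.33 and 1.51 and adjusted p ran from 0.0209 to 0.329. It also ended in a fit of the compared arrays alone (adjusted p = 0.366). Averaging the transcript features of GEM gave 1.26 (SE 0.31), and the call ended there as well. Arrays labelled gem1 read 14.38, 14.61, 14.44 and 14.59, which is 0.16 (SE 0.10) above wild type and not below it. GEM has 2 transcript features, of which the brighter is given, and where the probes lie relative to the insertion is not known here. Whether that line loses GEM transcript was not tested, and its arrays are called by their label here. Of 6 genes commonly used to follow the ABA response, 5 rose, from RAB18 by 2.34 to HAI3 by 5.25, and RD29A, near the top of the scale, gave 0.20. The rise was larger in replicate 2 than in replicate 1 for 3 of the 6 by limma, beside 2.34% of all loci called in either direction. Untreated HAI1 ran from 9.84 to 13.93 over 6 arrays.

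After ABA, RHS13, EXPA18, PRP3, COW1, LRX1 and RSL2 fell when the 3 genotypes were averaged, from 3.75-fold lower in RHS13 to 1.42-fold lower in RSL2. These 6 of 10 stand beside 5.2% of all loci that fell and 5.6% that rose in the same comparison, and 0 of the 10 rose. Among the 6 were 4 of the 5 wall genes, the tip growth gene COW1 and 1 of the 4 bHLH genes. EXPA7, RSL4, RHD6 and RSL1 gave negative differences that did not pass. The median difference of the 10 genes was -0.65 against -0.03 for all loci. The test was limma on all 12 arrays with Benjamini-Hochberg adjustment over all 32627 loci and a threshold of 0.05.

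**Figure D1:**
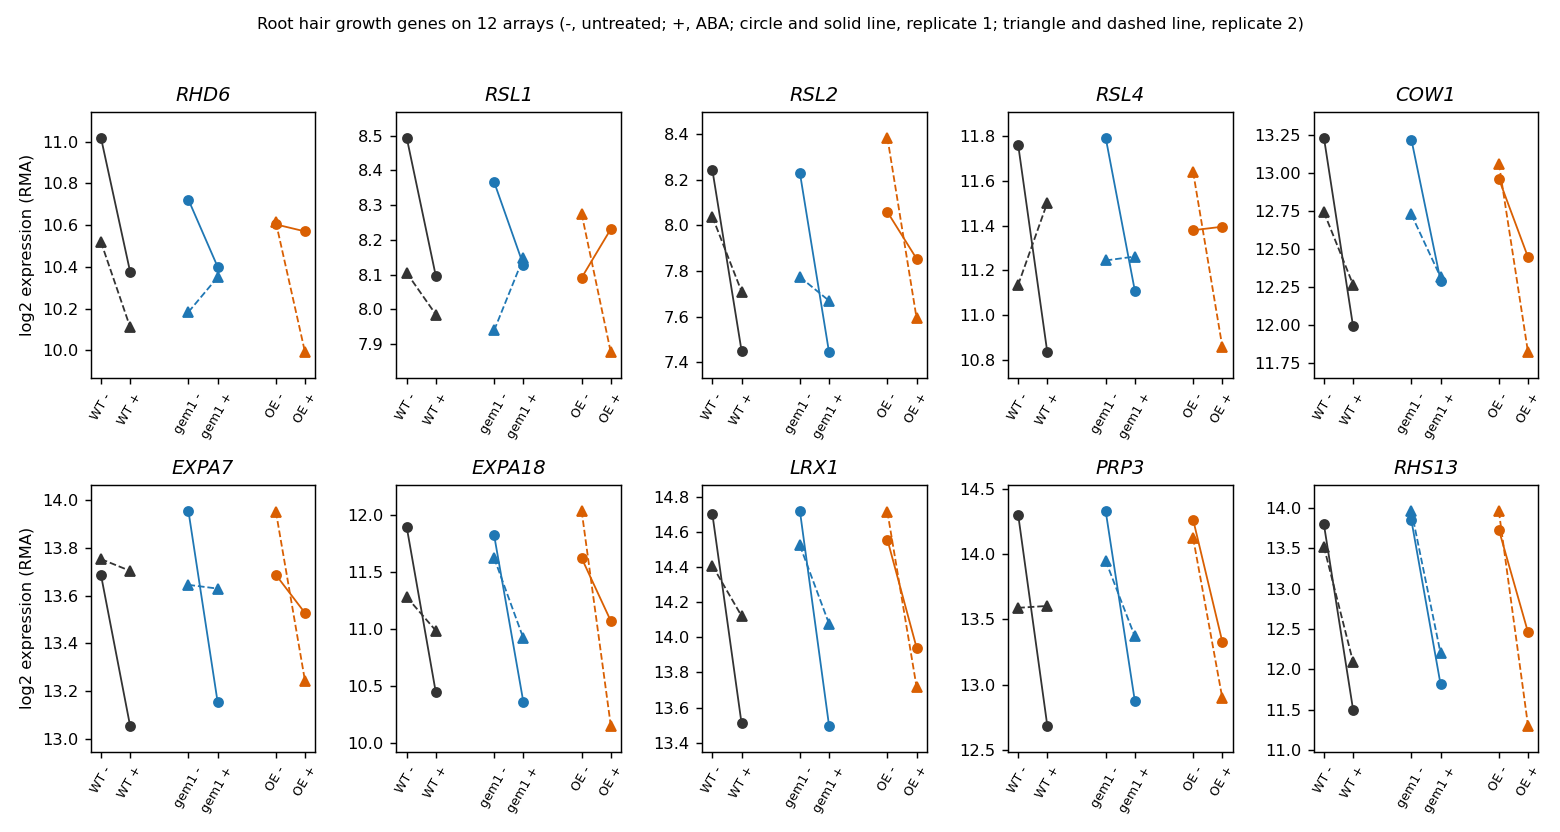
Log2 expression of the 10 genes on each array, by genotype (WT, wild type; gem1, arrays labelled gem1; OE, GEM overexpressor) and treatment (-, untreated; +, ABA); circles are replicate 1, triangles replicate 2, and lines join the arrays of a genotype that share a replicate number. In RHS13, COW1, EXPA18 and LRX1 every ABA array lies below every untreated one. In RSL4, RSL1, RHD6, RSL2, EXPA7 and PRP3 the ABA and untreated arrays overlap.

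Of the class I factors, RHD6 read 11.02 and 10.52 in untreated wild type (replicates 1 and 2), 10.72 and 10.18 in arrays labelled gem1 and 10.60 and 10.61 in the overexpressor. After ABA it read 10.38 and 10.11, 10.40 and 10.35, and 10.57 and 9.99 in the same order. Treated and untreated arrays overlapped, and the ABA difference of -0.31 (SE 0.15, limma adjusted p = 0.292) did not pass. RSL1 read 8.49 and 8.11, 8.37 and 7.94, and 8.09 and 8.28 without ABA. With ABA it gave 8.10 and 7.99, 8.13 and 8.15, and 8.23 and 7.88. Its ABA difference was -0.13 (SE 0.11, adjusted p = 0.649), and all 12 arrays lay between 7.88 and 8.49.

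The class II factors are the ones that set hair growth downstream of RHD6. RSL2 read 8.24 and 8.04 in untreated wild type, 8.23 and 7.77 in arrays labelled gem1 and 8.06 and 8.39 in the overexpressor. After ABA it read 7.45 and 7.71, 7.44 and 7.67, and 7.85 and 7.59. It was lower after ABA in all 6 pairs of genotype and replicate number, although its 2 sets of arrays overlapped at 1 untreated array labelled gem1. RSL2 fell by 0.50 (SE 0.12, adjusted p = 0.0341), at a signal among the dimmest 30% of loci. RSL4 read 11.76 and 11.13, 11.79 and 11.24, and 11.38 and 11.64 without ABA. Its values after ABA were 10.83 and 11.50, 11.11 and 11.26, and 11.40 and 10.86. ABA arrays lay below untreated ones by 0.93, 0.68 and 0.78 in 3 pairs and level or above in the other 3, and the mean difference was -0.33 (SE 0.19, adjusted p = 0.385).

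COW1, which links phosphoinositides to membrane traffic at the hair tip, read 13.24 and 12.74 in untreated wild type, 13.22 and 12.73 in arrays labelled gem1 and 12.96 and 13.06 in the overexpressor. After ABA it read 11.99 and 12.27, 12.29 and 12.31, and 12.45 and 11.82. The lowest untreated array was above the highest ABA array. COW1 fell by 0.80 (SE 0.15, adjusted p = 0.0145), or 1.75-fold.

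Among the wall genes, RHS13 moved most. Untreated, it read 13.80 and 13.52 in wild type, 13.85 and 13.96 in arrays labelled gem1 and 13.73 and 13.96 in the overexpressor. After ABA it read 11.50 and 12.09, 11.82 and 12.20, and 12.46 and 11.30. The 6 untreated arrays lay within 0.44 of each other while the 6 ABA arrays spread over 1.16, and the sets were far apart. RHS13 fell by 1.91 (SE 0.21, adjusted p = 0.00159), or 3.75-fold. The other 3 wall genes that fell are a pair of structural proteins and an expansin.

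EXPA18 read 11.90 and 11.28, 11.82 and 11.62, and 11.62 and 12.04 without ABA. With ABA it gave 10.45 and 10.99, 10.36 and 10.92, and 11.07 and 10.15. It fell by 1.06 (SE 0.22, adjusted p = 0.0199), and the 2 sets of arrays did not overlap. EXPA7, the other expansin, read 13.69 and 13.75, 13.96 and 13.64, and 13.69 and 13.95 without ABA. Its ABA values were 13.05 and 13.70, 13.15 and 13.63, and 13.53 and 13.24. EXPA7 was lower in all 6 pairs, but in 2 of them by 0.05 or less, and its mean difference of -0.40 (SE 0.15, adjusted p = 0.154) did not pass. Whether the probes of these 2 expansins also bind each other's transcript was not tested.

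LRX1 read 14.70 and 14.41, 14.72 and 14.53, and 14.56 and 14.72 without ABA. The ABA arrays gave 13.51 and 14.12, 13.50 and 14.08, and 13.94 and 13.72. All 6 ABA arrays were below all 6 untreated ones, and LRX1 fell by 0.80 (SE 0.15, adjusted p = 0.0138). PRP3 read 14.30 and 13.59, 14.33 and 13.95, and 14.26 and 14.12 without ABA. After ABA it read 12.68 and 13.60, 12.88 and 13.37, and 13.33 and 12.90. PRP3 fell by 0.97 (SE 0.21, adjusted p = 0.0259), with the 2 sets overlapping in wild type replicate 2 alone, where ABA and untreated arrays differed by 0.01.

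In total 6 of the 10 genes (RSL2, COW1, EXPA7, EXPA18, LRX1 and RHS13) were lower after ABA in all 6 pairs, against 15.7% of all loci. In 4 of the 10 (COW1, EXPA18, LRX1 and RHS13) every ABA array was below every untreated array, against 6.01% of all loci. A fit that took the replicate number as a block also gave 6 of 10 lower, beside 12.9% of all loci. The count depended on single arrays: it was 3 of 10 without the first ABA-treated wild type array, without untreated or ABA-treated replicate 1 of the arrays labelled gem1, or without untreated overexpressor replicate 2. RHS13, COW1 and LRX1 passed in each of the 12 fits that left out 1 array, with highest adjusted p-values of 0.00817, 0.0489 and 0.0477. EXPA18 passed in 8 of the 12, missing in the 4 just named with adjusted p up to 0.0646. PRP3 passed in 5 and RSL2 in 3 of the 12, with adjusted p up to 0.0759 and 0.0979.

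**Figure D2:**
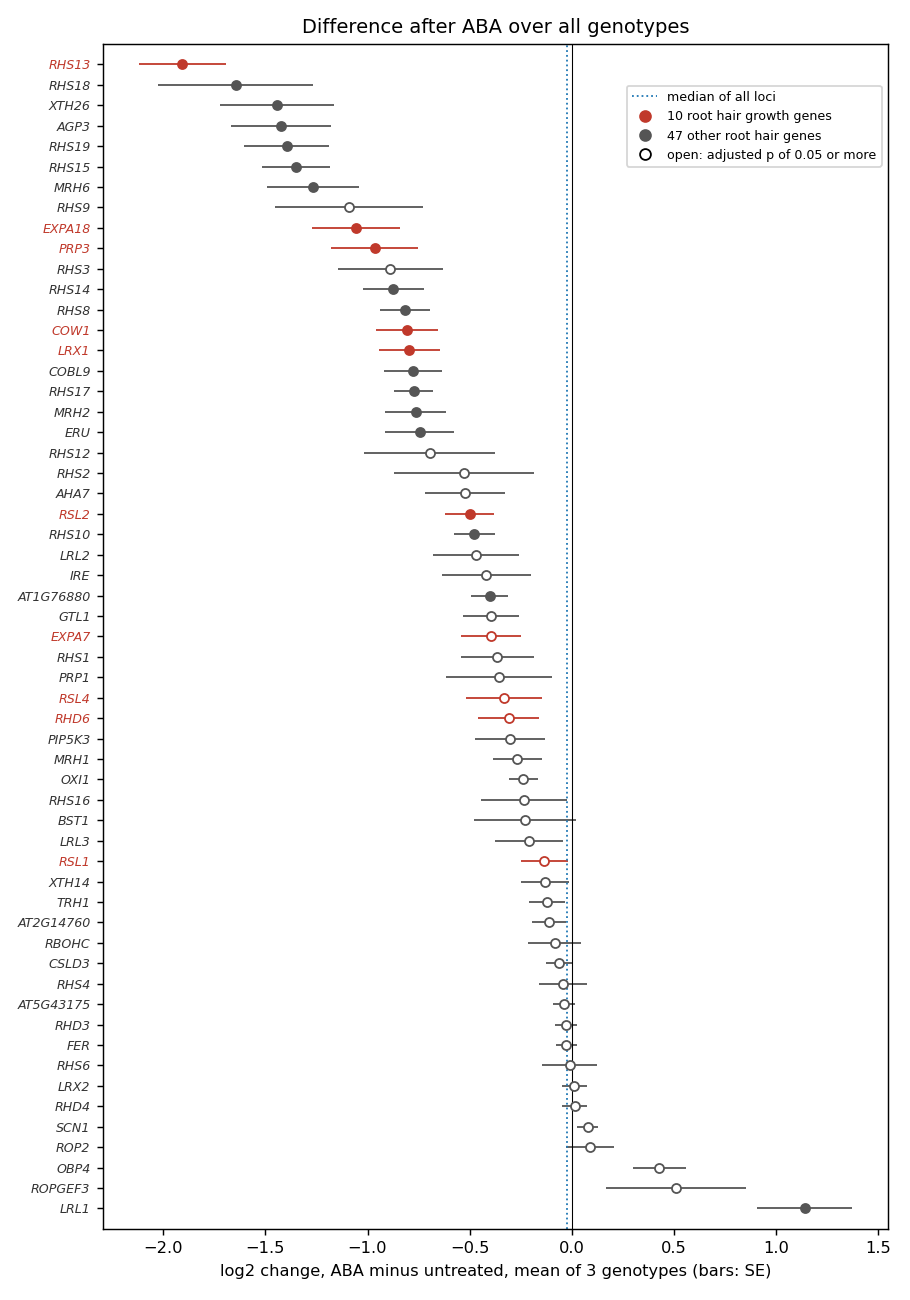
Log2 difference between ABA and untreated seedlings, averaged over the 3 genotypes, for the 10 genes (red) and 47 other root hair genes (grey), with bars of 1 SE; filled points passed the limma threshold and the dotted line is the median of all loci. RHS13 is the lowest of the 57 at -1.91, and LRL1 is the highest at 1.14.

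Within a single genotype the ABA differences were of similar size, but groups of 2 arrays gave wide errors. RHS13 differed by -1.86 in wild type, -1.90 in arrays labelled gem1 and -1.96 in the overexpressor (SE 0.37 each), with limma adjusted p = 0.0633, 0.0591 and 0.051. With the replicate block it passed in all 3, at 0.0335, 0.0325 and 0.029. EXPA18 gave -0.87, -1.08 and -1.22 (SE 0.37 each), PRP3 gave -0.80, -1.02 and -1.08 (SE 0.36 each), and COW1 gave -0.86, -0.67 and -0.88 (SE 0.26 each). LRX1 stood at -0.74, -0.84 and -0.81, RSL2 at -0.56, -0.45 and -0.50, EXPA7 at -0.34, -0.41 and -0.44 and RSL4 at -0.28, -0.33 and -0.38. The class I genes were the least even, with RHD6 at -0.53, -0.08 and -0.33 (SE 0.26 each) and RSL1 at -0.26, -0.01 and -0.13 (SE 0.20 each).

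All 10 differences were negative in each genotype, with medians of -0.65, -0.56 and -0.65 against -0.02, -0.06 and -0.01 for all loci. By limma 0 of 10 passed in wild type, in arrays labelled gem1 and in the overexpressor, where 0.306%, 0.273% and 0.365% of all loci were called lower. At an unadjusted p under 0.05 the counts were 5, 5 and 6 of 10, beside 3905, 3407 and 3847 of all 32627 loci in either direction. With the replicate block 1 of 10, RHS13, passed in each, beside 2.69%, 1.83% and 2.35% of all loci. RHS13 also passed in wild type and in the arrays labelled gem1 when ABA-treated overexpressor replicate 1 or 2 was left out (adjusted p = 0.0254 and 0.0226), and in the overexpressor at -2.54 without its ABA replicate 1 (adjusted p = 0.0296). That last value rests on 1 ABA-treated array, the one with the lowest RHS13 signal, which is assumed to vary like the other groups.

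Whether a genotype changed the ABA difference was tested directly. For arrays labelled gem1 minus wild type the difference of differences ran from -0.22 in PRP3 (SE 0.52) to 0.45 in RHD6 (SE 0.37). For the overexpressor minus wild type it ran from -0.34 in EXPA18 (SE 0.53) to 0.20 in RHD6 (SE 0.37). By limma 0 of 10 passed in either, with 0 of 10 at an unadjusted p under 0.05 and 0% of all loci called in both. Standard errors of 0.28 to 0.53 leave differences in response of that order undetectable with 2 arrays per group.

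Between genotypes the 10 genes were close in level. Averaged over both treatments, arrays labelled gem1 differed from wild type by -0.09 (RHD6) to 0.23 (RHS13), and the overexpressor by -0.06 (RHD6) to 0.13 (RHS13), with SE from 0.14 to 0.26. By limma 0 of 10 passed in these 2 comparisons, with 0 of 10 at an unadjusted p under 0.05, and 0% and 0.00306% of all loci were called, the latter being GEM alone. RSL4, the growth regulator, gave 0.04 and 0.01 (SE 0.23 each), and COW1 gave 0.08 and 0.01 (SE 0.19 each). In untreated seedlings the range was -0.32 (RHD6) to 0.25 (RHS13) for arrays labelled gem1 and -0.16 (RHD6) to 0.25 (PRP3) for the overexpressor. After ABA it was -0.07 (EXPA18) to 0.21 (RHS13) and -0.10 (EXPA18) to 0.14 (RSL2). In each of these 4 comparisons 0 of 10 passed by limma, 0 of 10 had an unadjusted p under 0.05 and 0% of loci were called. A p that misses the threshold does not show that the levels were equal.

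**Figure D3:**
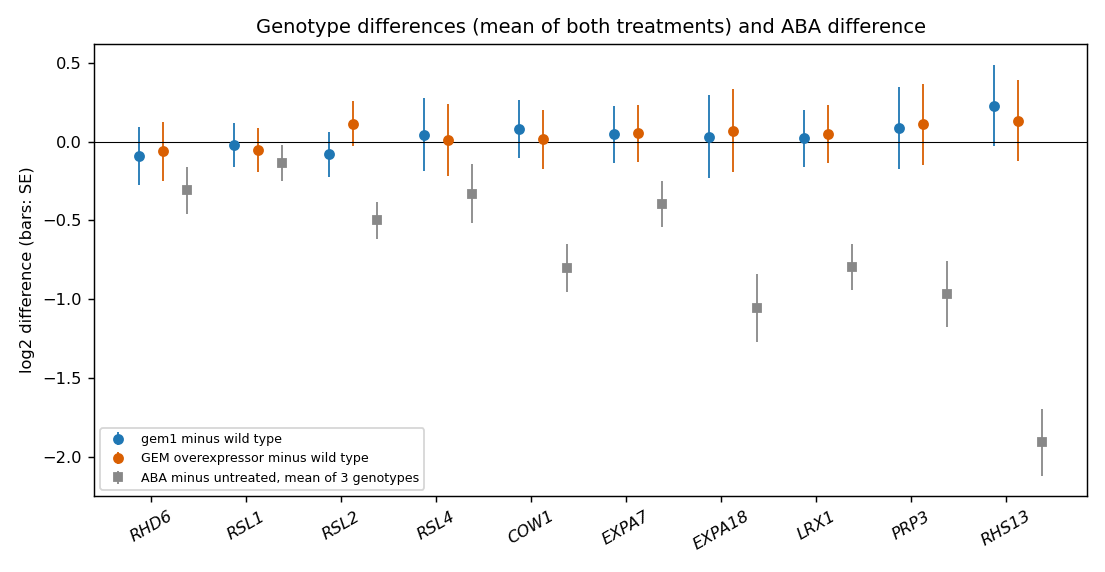
Log2 differences of the 10 genes between each altered line and wild type, averaged over treatments (blue, arrays labelled gem1; orange, GEM overexpressor), beside the ABA difference averaged over genotypes (grey squares); bars are 1 SE. Genotype differences lie between -0.09 and 0.23, and ABA differences reach -1.91.

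Replicate pairs differed in how far the 10 genes moved with ABA. PRP3 gave -1.62 in wild type replicate 1 and 0.01 in replicate 2, -1.45 and -0.58 in arrays labelled gem1, and -0.93 and -1.22 in the overexpressor. EXPA18 gave -1.45 and -0.29, -1.46 and -0.70, and -0.55 and -1.88 in the same order. In RHS13 the pairs gave -2.29 and -1.43, -2.03 and -1.76, and -1.27 and -2.65. The larger drop thus lay in replicate 1 for wild type and arrays labelled gem1, and in replicate 2 for the overexpressor.

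That order held in each of the 10 genes, against 19.7% of all loci. It also held in 30 of the 47 other root hair genes, 63.8% of them, and in 5 of 7 endodermis, 2 of 4 stele, 1 of 4 non-hair epidermis and 1 of 5 green tissue markers. The pattern was noticed after the values were seen and was not tested. Median differences of the 10 genes were -1.06 and -0.29 in wild type, -0.86 and -0.26 in arrays labelled gem1, and -0.36 and -0.90 in the overexpressor, while those of all loci stayed between -0.07 and 0.01. Untreated and ABA arrays both took part: from replicate 1 to replicate 2 the median of the 10 genes differed by -0.44 (untreated) and 0.57 (ABA) in wild type, by -0.40 and 0.31 in arrays labelled gem1, and by 0.21 and -0.48 in the overexpressor. The 2 arrays of each group are thus far apart for these genes, and their part in the ABA differences of single genotypes was not tested. Within each genotype the untreated and ABA medians had opposite signs, so the pairing by replicate number, taken from all loci, was not seen in these medians.

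**Figure D4:**
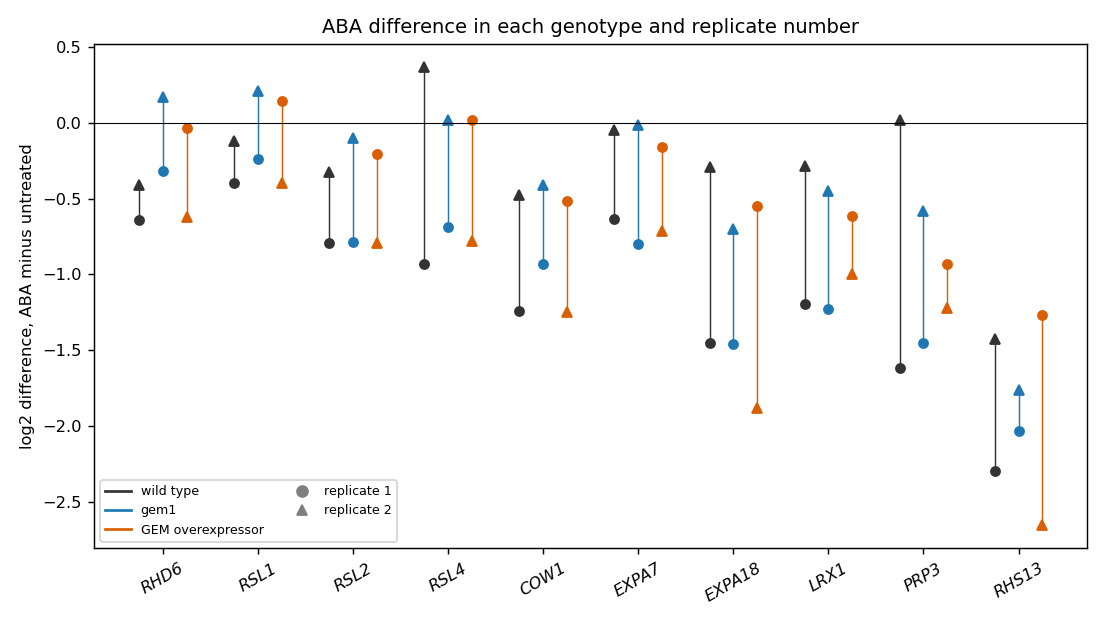
Log2 difference between the ABA array and the untreated array of the same genotype and replicate number for each of the 10 genes; colours are genotypes, circles replicate 1 and triangles replicate 2. In all 10 genes the circle is below the triangle in wild type and in arrays labelled gem1, and above it in the overexpressor.

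Averaged over groups, replicate 2 differed from replicate 1 by a median of -0.04 in the 10 genes. RHD6 was lower in replicate 2 by limma with group and replicate as terms (-0.32, SE 0.10, adjusted p = 0.0293), and 1 of 10 passed, beside 47% of all loci. That call ended without any 1 of the 4 wild type arrays, the 2 untreated arrays labelled gem1 or the 2 ABA-treated overexpressor arrays, where 0 of 10 passed, and 2 of 10 passed without either untreated overexpressor array. Averaged within replicate 1 and within replicate 2 (mean ± SD over 3 genotypes), the ABA difference of RHS13 was -1.87 ± 0.53 and -1.95 ± 0.63. That of PRP3 was -1.34 ± 0.36 and -0.60 ± 0.62, that of LRX1 -1.01 ± 0.34 and -0.58 ± 0.37, and that of EXPA18 -1.15 ± 0.52 and -0.96 ± 0.82. COW1 gave -0.90 ± 0.37 and -0.71 ± 0.46, and RSL2 gave -0.59 ± 0.34 and -0.41 ± 0.35, so all 6 genes called in the average were negative in both. The difference between the 2 replicate numbers passed in 0 of 10 genes, beside 2.34% of all loci. At an unadjusted p under 0.05 stood 1 of 10 (PRP3 at 0.74, SE 0.32, limma adjusted p = 0.407), beside 3870 of all 32627 loci.

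Other genes of root hair growth were read from a list of 47. By limma 14 of the 47 fell and 1 rose in the ABA average, with a median of -0.36, beside 5.2% of all loci that fell and 5.6% that rose. With the replicate block 22 fell and 2 rose, beside 12.9% and 9.27% of all loci. Both peroxidases of the list fell, RHS18 by 1.64 (SE 0.38, adjusted p = 0.0319) and RHS19 by 1.39 (SE 0.21, adjusted p = 0.00546). Of 10 further wall genes 5 fell, namely the xyloglucan enzyme XTH26 by 1.44, the arabinogalactan protein AGP3 by 1.42, RHS14 by 0.87, RHS8, a sugar transferase also named XUT1, by 0.82, and the COBRA-like protein SHV2 (also COBL9) by 0.78. RHS15, a glycerol-3-phosphate permease, fell by 1.35, 1 of 4 transport genes. MRH6 fell by 1.27 and RHS17 by 0.77, which are 2 of 5 in a mixed group. The kinesin MRH2, 1 of 12 tip growth genes, fell by 0.76. Of 6 receptor kinases ERU fell by 0.75 and RHS10 by 0.48.

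The 12 tip growth genes had a median of -0.16 and ran from -0.89 to 0.51, with MRH2 alone past the threshold. The 6 receptor kinases had a median of -0.25 and the 10 wall genes of -0.74. Of 3 genes listed as repressors of hair growth, AT1G76880 alone passed and fell by 0.40 (SE 0.09, adjusted p = 0.0272). The 3 ran from -0.40 to 0.43, so they did not share a direction. LRL1, a bHLH regulator of hair growth, rose by 1.14 (SE 0.23, adjusted p = 0.0205), and 0 of the other 4 regulators passed. Means of 6 of the 47 were over 15, near the top of the scale. The count of falls was 8 when untreated overexpressor replicate 2 was left out and 9 when the first ABA-treated wild type array was. LRL1 did not pass in 4 of the 12 fits with 1 array left out, those without ABA-treated wild type replicate 2, either ABA-treated array labelled gem1 or untreated overexpressor replicate 2. In wild type, arrays labelled gem1 and the overexpressor 0 of 47 passed by limma, beside 446, 475 and 506 of all 32627 loci called in either direction. Counts at an unadjusted p under 0.05 were 16, 13 and 15 of 47, beside 3905, 3407 and 3847 of all loci. With the block 4, 2 and 3 fell and 1 rose in each, beside 2.69%, 1.83% and 2.35% of all loci lower and 3.33%, 3.72% and 3.5% higher.

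Markers of other root tissues moved in the same average, where 5.2% of all loci fell and 5.6% rose. With the replicate block 12.9% of all loci fell and 9.27% rose. Of 7 endodermis genes 5 fell, from CASP1 by 0.29 to CASP4 by 1.14, and CASP5 rose by 0.92, with a list median of -0.50. Of 4 stele genes 1 fell, the phosphate exporter PHO1 by 0.65, with a list median of -0.43, and 3 fell with the replicate block. Of 4 genes of non-hair epidermis, WER, which directs cells away from the hair fate, fell by 1.26 (SE 0.17, adjusted p = 0.00343), GL2 gave -0.21 (SE 0.15), and TTG2 gave 0.36 (SE 0.19) with a list median of -0.20. With the replicate block WER fell and TTG2 rose (adjusted p = 0.0104). Green tissue markers passed in 0 of 5 (0 at an unadjusted p under 0.05, and 0 with the block), with a median of 0.02, although 3 of the 5 had means over 15. In a bulk seedling sample fewer root hair cells and less RNA per cell cannot be told apart, and the part of these tissue markers in the fall of the root hair genes was not tested.

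Between replicate numbers the same lists also differed. By limma replicate 2 was lower in 4 of 4 stele, 5 of 7 endodermis and 2 of 4 non-hair epidermis genes. It was higher in 2 of 5 green tissue genes, CAB2 by 0.85 and LHCB2.1 by 0.38. Of all 32627 loci, 6842 were lower and 8508 higher, together 47%. The part of this replicate difference in the values of the 10 genes was not tested.

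The 10 genes varied together over the 12 arrays. Pearson's r between 2 of them ran from 0.43 (RSL1 and EXPA7) to 0.97 (LRX1 and PRP3) over the 45 pairs, with a median of 0.83. These points share treatment, replicate number and normalization, so the values are descriptions. The mean of the 10 genes, each centred on its own mean, was set against 3350 other named loci with an SD over the 12 arrays of at least 0.3. The closest was AGP3 (r = 0.99), which went from a mean of 12.74 in untreated to 11.31 in ABA arrays. SHV2 (0.98), RHS18 (0.97), the nuclear factor Y subunit NF-YA6 (0.96) and the purple acid phosphatase PAP9 (0.95) followed, of which AGP3, SHV2 and RHS18 stand in the list of 47. For RSL4 alone the closest were RHS12 (0.97), AT1G16440, also called RHS3 (0.90), the F-box gene AUF1 (0.90), the kinase gene IRE (0.90) and the metal transporter IRT2 (0.89).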

How the data were processed

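Single-colour (Cy3) arrays, 1 per sample, were read as deposited. Per the submitters' processing notes the authors made the values with RMA, which corrects background, equalises array distributions and summarises probes. Its version, the design of the array and the build are not stated in those notes or the labels. The log2 scale was taken from the deposited values, which run from 6.99 to 15.95. A second deposited column per transcript, a score named as a standard error per the file headers, was not used. RMA would hide a change in total RNA per cell, and values near the top of the scale have little room to rise. A table of the whole series was identical to the single files (largest difference 0).

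For 3602 loci with several features the brightest by mean was used. Symbols came from the array annotation and the TAIR10.1 gene table (31993 of 32627 loci matched).

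limma 3.58.1 (R 4.3.3, lmFit and eBayes) fitted 6 group means on 12 arrays, leaving 6 residual degrees of freedom. Its two-sided p-values were adjusted by Benjamini-Hochberg across every locus, at a threshold of 0.05. The fit was tested on simulated data. Replicates are numbered 1 and 2 within each group in the labels. Replicate differences correlated over loci in all 15 pairs of groups (r from 0.44 to 0.88, median 0.71), so the numbers were taken to pair the samples. That rests on all loci. In the 10 genes the median replicate difference had opposite signs in the untreated and ABA arrays of each genotype, so pairs are descriptive for them. A fit with that number as a block, leaving 5 degrees of freedom, is given where it changes a call or a count.

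The text names all 10 genes, GEM, genes of the list of 47 past the threshold in the ABA average, markers by count and range, and the 5 loci of highest Pearson r. Single markers were named after their values were seen. The members and lists were chosen with earlier results of these data known. Alternatives were the replicate block, a variance trend, the contrast's arrays alone, leaving out the dimmest 30% of loci, shifting arrays to 1 median, repeating quantile normalization, averaging features, reading the series table, requiring a 2-fold change and leaving out each array. Leaving out each array with the block kept was added after seeing the data. Figures used matplotlib 3.10.9.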

Additional observations from a re-analysis of the deposited data

How the results depend on the processing

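With 12 arrays in 6 groups of 2, single arrays carried weight. In the ABA average 6 of 10 root hair genes fell; the count was 2 with a 2-fold minimum, and it ran from 3 to 6 with each array left out and from 4 to 7 with the replicate block kept as well. RSL2 gave adjusted p = 0.0506 when quantile normalization was repeated, and it was not tested, nor was RSL1, without the dimmest 30% of loci. In wild type, arrays labelled gem1 and the overexpressor, where 0 of 10 passed, the count was 1 with the replicate block or a variance trend. It was also 1 in arrays labelled gem1 and the overexpressor without the dimmest 30% of loci, and 1 in the overexpressor with arrays shifted to 1 median. With each array left out, block kept or not, it ran from 0 to 1 in each genotype. Between replicate numbers 1 of 10 passed; 0 passed with a variance trend or a 2-fold minimum, and from 0 to 2 with each array left out. The paired analysis, with the replicate number as a block, changed no other call of the 10 genes among these contrasts. No difference that passed in the ABA average changed its sign under any alternative run. Restricting the fit to the contrast's arrays gave no separate value for the ABA average, which uses all 12. The causes of these changes were not tested. Dim signal limits RSL1 and RSL2.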
